A study of Homo sapiens with 6 samples.

Results

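The subunits of the mitochondrial oxidative phosphorylation system that are encoded in the nucleus were examined in U87 cells with and without IL-33. A gene was a member by its only symbol in the array annotation. For complex I the symbol began with NDUFA, NDUFB, NDUFC, NDUFS or NDUFV and a digit. For complex II it was SDHA, SDHB, SDHC or SDHD. It began with UQCR for complex III, with COX4 to COX8 for complex IV and with ATP5 for complex V. This rule used no measured value and gave 82 of the 18132 genes on the array. Of these, 35 belonged to complex I, 3 to complex II, 8 to complex III, 17 to complex IV and 19 to complex V. SDHB was not among the genes found. By symbol the rule also took in COX7A2L, a related protein that joins complexes III and IV, and ATP5IF1, an inhibitor of ATP hydrolysis.

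U87 is an established human glioma line, and mRNA from cultured cells was measured on 6 Affymetrix PrimeView arrays. There were 3 clones that express full-length human IL-33 (IL-33 clones 3, 5 and 9), 2 clones that express IL-33 without its nuclear localization signal (ΔNLS clones 3 and 4), and 1 control culture with the empty vector. All were stable transfectants with the pcDNA3.1 plasmid, so the control carries the vector too. Each array of the IL-33 and ΔNLS groups stands for 1 clone, and the control for 1 culture. The protein belongs to the IL-1 cytokines and can be secreted or can enter the nucleus and bind chromatin. The comparisons ask how the cells differ when they make the full-length protein or the form that lacks the nuclear signal.

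Oxidative phosphorylation takes place at the inner membrane of the mitochondrion. Complexes I and II take electrons from NADH and succinate and pass them to ubiquinone, complex III passes them on to cytochrome c, and complex IV hands them to oxygen. Complexes I, III and IV pump protons, and complex V, the ATP synthase, lets the protons flow back and makes ATP. Most subunits are encoded in the nucleus, and the promoters of many of these genes bind the nuclear respiratory factors NRF1 and GABP (NRF2). Glioma cells use glycolysis heavily in culture but keep a working respiratory chain.

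All values below are log2 values as deposited, differences are in log2 units, and a gene was called when the limma adjusted p over all 18132 genes was under 0.05. A level counted as above background when it exceeded 4.81, the value below which 95% of the values of 330 olfactory receptor genes lay. The IL33 gene itself read 8.38, 6.40 and 9.50 in IL-33 clones 3, 5 and 9, 6.50 and 6.62 in ΔNLS clones 3 and 4, and 3.46 in the control. Every clone was above background and the control was below it, so the control fits its label, and IL-33 clone 5 was at the level of the ΔNLS clones. The IL33 gene was not called in IL-33 minus control (4.63, limma adjusted p = 0.0575) or ΔNLS minus control (3.10, limma adjusted p = 0.0774). A gene can thus differ widely from the control and not be called. The mesenchymal markers VIM, CD44, NES, SPARC and FN1 were above background on all 6 arrays, while THY1 was above it on 0 arrays. Of 4 leukocyte markers, AIF1 was above background on 4 arrays and the other 3 on none, and PTPRC read at most 2.25. The neuronal genes SNAP25 and RBFOX3, VWF of endothelium and KRT5 of epithelium were also above background on all 6 arrays, and SYT1 in every clone but not in the control (3.18). Their part in the results was not tested. The distribution of values on the ΔNLS arrays stood apart. Sorted values differed by 0.154 to 0.161 on average between a ΔNLS array and any IL-33 or control array, against at most 0.0273 between the ΔNLS arrays and at most 0.023 among the IL-33 and control arrays. The ΔNLS construct and membership of that set of arrays cannot be told apart. Quantile normalization over the 6 arrays moved the median difference of all genes to 0.01 (as deposited -0.09) for ΔNLS minus control and to 0.01 (as deposited 0.13) for IL-33 minus ΔNLS, so counts of members called in comparisons with the ΔNLS clones are also given after it, apart from those that leave out a clone.

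Of the 82 members, 76 were above background on all 6 arrays. The 5 that were above it on no array were ATP5MGL, a copy of a membrane subunit of ATP synthase, and COX4I2, COX7A1, COX7B2 and COX8C, the isoforms of complex IV subunits that are known from lung, muscle and testis. COX6B2, a testis isoform, was above background on some arrays only. The general partners of these isoforms were all well above background. COX4I1 read 11.40, 11.63 and 11.26 in the IL-33 clones, 11.71 and 11.66 in the ΔNLS clones and 11.36 in the control. COX6A1 read 12.44, 12.69 and 12.41 in the IL-33 clones, 12.63 and 12.65 in the ΔNLS clones and 12.53 in the control. Neither was called in any comparison, and each gene's values lay within 0.5 of each other across the arrays. Subunits whose probe sets were not matched to 1 symbol by the rule were not analysed here.

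The promoter sequences of the members were searched for 6 motifs. RefSeq promoters (GRCh38.p14, 250 bases before and 50 bases from the start on) were at hand for 67 of the 82 members and for 27305 genes in all. The NRF1 motif (GCGCA, any base, then GCGC), searched like the others on both strands, was in 16 of the 67 members (23.9%), against 6.29% of all promoters. The GABP motif CCGGAAGT was in 10 (14.9%), against 4.41% of all promoters, and the YY1 motif AAGATGGCG was in 7 (10.4%), against 1.82%. The SP1 motif GGGCGG (58.2% of members, 44.5% of all), the CCAAT box (37.3% and 35.7%) and the TATA box TATAAA (10.4% and 12%) were closer to their share among all promoters. Motifs were searched one by one and may overlap. Within the members the motifs were spread unevenly: NRF1 was in 6 of 31 promoters of complex I, 2 of 2 of complex II, 3 of 6 of complex III, 1 of 14 of complex IV (COX8C, which was below background) and 4 of 14 of complex V. A match is a description of the letters and was not tested for binding. Stretches of 180 bases, 150 before and 30 from the start on, are given for a selection of members called in ΔNLS minus control. They run 5′ to 3′ along the gene, with NRF1, GABP and YY1 matches in capitals.
COX5B, chr2:97645912-97646091, plus strand: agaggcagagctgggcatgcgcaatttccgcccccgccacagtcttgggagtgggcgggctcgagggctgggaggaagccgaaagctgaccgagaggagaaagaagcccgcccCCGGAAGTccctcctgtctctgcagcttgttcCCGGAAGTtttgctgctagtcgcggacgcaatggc
COX8A, chr11:63974470-63974649, plus strand: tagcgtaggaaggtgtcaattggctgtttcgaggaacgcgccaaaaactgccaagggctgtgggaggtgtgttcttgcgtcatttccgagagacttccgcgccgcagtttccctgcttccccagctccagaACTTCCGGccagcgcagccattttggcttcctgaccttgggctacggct
SDHD, chr11:112086723-112086902, plus strand: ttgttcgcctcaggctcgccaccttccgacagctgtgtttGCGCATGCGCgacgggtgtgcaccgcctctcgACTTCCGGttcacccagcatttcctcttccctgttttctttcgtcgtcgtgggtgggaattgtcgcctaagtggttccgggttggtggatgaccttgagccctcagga
NDUFS7, chr19:1383757-1383936, plus strand: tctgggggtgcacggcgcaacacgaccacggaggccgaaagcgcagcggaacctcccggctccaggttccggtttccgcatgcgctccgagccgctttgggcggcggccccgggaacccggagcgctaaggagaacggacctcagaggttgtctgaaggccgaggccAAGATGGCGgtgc
COX7B, chrX:77899318-77899497, plus strand: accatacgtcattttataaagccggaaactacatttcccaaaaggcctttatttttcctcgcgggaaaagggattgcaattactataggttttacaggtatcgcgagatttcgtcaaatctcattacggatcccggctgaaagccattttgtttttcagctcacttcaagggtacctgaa
COX6B2, chr19:55354690-55354869, minus strand: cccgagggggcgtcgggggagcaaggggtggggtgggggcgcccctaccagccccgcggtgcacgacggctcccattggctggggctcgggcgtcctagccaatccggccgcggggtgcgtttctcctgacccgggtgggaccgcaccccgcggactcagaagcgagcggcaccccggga
COX5B held 2 GABP matches, COX8A held 1 on the opposite strand, SDHD held an NRF1 and a GABP match, and NDUFS7 held a YY1 match just after the start. COX7B, which rose in the ΔNLS clones, and COX6B2, which fell there, held none of the 3 in this window. Among the members called higher in ΔNLS than in control, 3 of the 17 with a promoter sequence held NRF1 and 3 held GABP, and among those called lower 1 of 7 held NRF1 and 1 of 7 held GABP.

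In the clones with full-length IL-33, the respiratory chain genes stayed close to the control as a group. In these clones 1 member rose and 2 fell: ATP5F1A, the alpha subunit of the catalytic head of ATP synthase, was higher by 0.83, while NDUFC1, an accessory subunit of the membrane arm of complex I, fell by 0.59 and NDUFS8, a core iron-sulfur subunit that leads electrons to ubiquinone, fell by 0.55. These 3 calls were 3.66% of the members, against 7.65% of all genes (3.65% called higher and 4% called lower). After quantile normalization 2 members were called higher and 3 lower, with NDUFS3 and NDUFB1 added, against 3.95% and 4.54% of all genes. The median difference of the members was 0.02, beside 0.04 over all genes, and 45 members had a positive and 37 a negative sign. In RNA from a whole culture, a change in the share of cells and a change per cell cannot be told apart.

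ATP5F1A read 12.23, 12.54 and 12.33 in IL-33 clones 3, 5 and 9, 12.23 and 12.08 in ΔNLS clones 3 and 4, and 11.53 in the control. All 5 clones lay above the control, and the difference IL-33 minus control was 0.83 ± 0.14 (SE), a 1.78-fold change, with a limma adjusted p of 0.0279. Its 4 probe sets gave differences between 0.74 and 0.94. NDUFC1 read 10.91, 10.80 and 10.69 in the IL-33 clones, 11.0035 and 11.0004 in the ΔNLS clones and 11.39 in the control. It was lowest in the IL-33 clones and highest in the control, without overlap (IL-33 minus control -0.59 ± 0.11, limma adjusted p = 0.0353). NDUFS8 read 10.36, 10.26 and 10.16 in the IL-33 clones, 10.74 and 10.70 in the ΔNLS clones and 10.80 in the control. Only the IL-33 clones were low for NDUFS8 (IL-33 minus control -0.55 ± 0.11, limma adjusted p = 0.0422). Its other probe set gave 0.06, and with the mean of both probe sets the call was lost.

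The 3 calls depended on which arrays set the spread, and so did the calls over all genes (7.65% with all arrays). With the ΔNLS arrays left out of the fit, 0% of all genes were called. Fewer of all genes were also called without IL-33 clone 9 or without either ΔNLS clone. No member was called by limma without IL-33 clone 9, without either ΔNLS clone, or with the ΔNLS arrays left out of the fit. With all arrays, 19 of the 82 members had an unadjusted p under 0.05 in limma, beside 4760 of all 18132 genes. ATP5F1A lies on chromosome 18 and NDUFC1 on chromosome 4, where the genes as a whole differed from the control: the median over genes above background was 0.37 for the 157 genes of chromosome 18 and -0.45 for the 403 genes of chromosome 4 in IL-33 minus control. Chromosome 14 had a median of -0.34 over 384 genes. The part of these chromosome-wide differences in the values of single members was not tested. The 4 members above background on these chromosomes that missed the threshold had the sign of their chromosome. ATP5ME (chromosome 4, subunit e of the membrane part of ATP synthase) differed by -0.80 (limma adjusted p = 0.0881), NDUFB1 (chromosome 14, complex I membrane arm) by -0.70 (0.0507, and -0.72 with 0.0442 after quantile normalization), ATP5MJ (chromosome 14) by -0.31 (0.174) and NDUFV2 (chromosome 18, iron-sulfur subunit of the NADH-oxidizing module) by 0.44 (0.0668). Without the 8 members on chromosomes 4, 14 and 18, 1 call was left, NDUFS8.

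**Figure D1:**
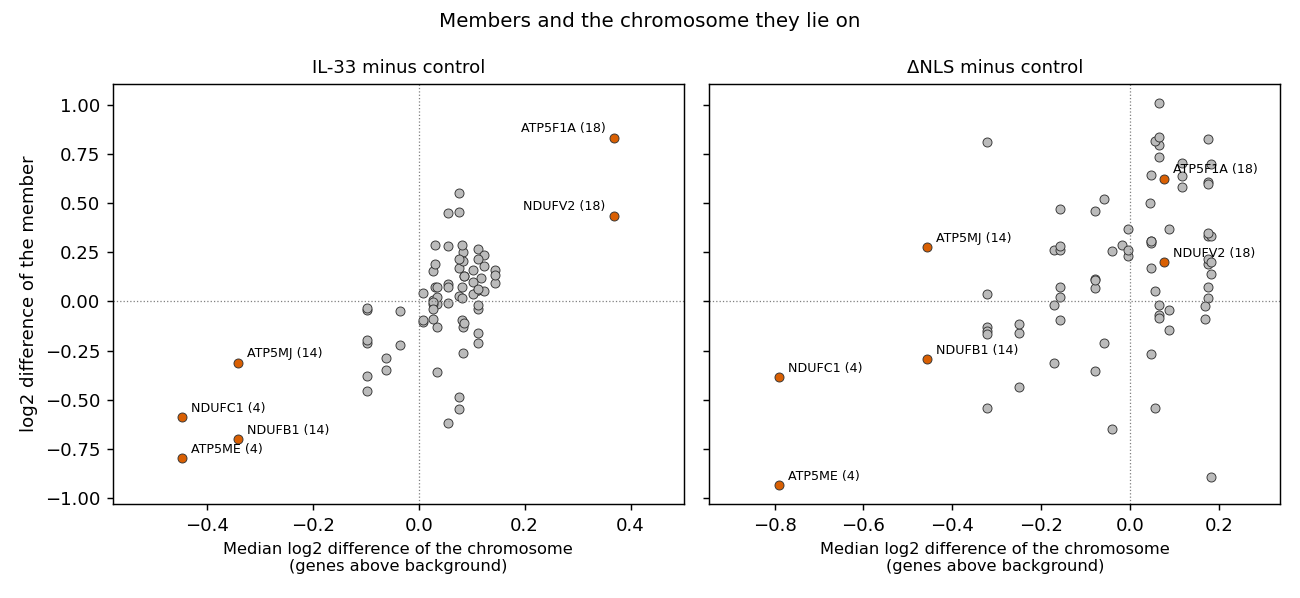
Each point is 1 member above background, with the median log2 difference of all genes above background on its chromosome on the horizontal axis and its own log2 difference on the vertical axis, for IL-33 minus control (left) and ΔNLS minus control (right). Members on chromosomes 4, 14 and 18 are orange and named, and ATP5F1A (0.83) and ATP5ME (-0.80) form the ends of the left panel.

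By complex, IL-33 minus control had medians of 0.02 for complex I, -0.04 for complex II, 0.17 for complex III, 0.04 for complex IV and -0.04 for complex V. Complexes II, III and IV had 0 members called by limma. An unadjusted p under 0.05 was found for 1 of 3, 2 of 8 and 2 of 17 members, beside 4760 of all 18132 genes. In complex II the anchors SDHC and SDHD, which hold the enzyme in the membrane, had opposite signs. SDHC read 9.00, 9.37 and 8.85 in the IL-33 clones, 10.005 and 9.974 in the ΔNLS clones and 9.69 in the control, and the difference of -0.62 to the control missed the threshold (limma adjusted p = 0.126). SDHD read 8.99, 9.42 and 9.32 in the IL-33 clones, 9.60 and 9.45 in the ΔNLS clones and 8.79 in the control, and its difference of 0.45 missed it as well (limma adjusted p = 0.200). SDHA, the flavoprotein that oxidizes succinate, differed from the control by -0.04.

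In the ΔNLS clones more members moved, and most of the calls were upward. Of the 82 members, 19 rose and 8 fell against the control (23.2% and 9.76%), while of all genes 14.8% were called higher and 23.5% lower. After quantile normalization there were again 19 members called higher and 8 lower, of which 17 and 7 were the same genes, and 18.2% of all genes were called higher and 18.1% lower (2680 and 4267 genes as deposited, 3295 and 3283 after quantile normalization). ATP5F1A, COX5A and NDUFS1 lost the call, while NDUFB2 and, below background on all arrays, ATP5MGL and COX4I2 gained it. Among the 76 members above background on all arrays, 19 were called higher and 6 lower as deposited (25% and 7.89%). After quantile normalization 17 and 6 were called (22.4% and 7.89%). Of all genes with a mean above background, 18.4% were called higher and 20.9% lower as deposited. After quantile normalization these shares were 19.5% and 18.9%, so the share called higher was then closer to that of the members than the share called lower. The median difference of the members was 0.18 as deposited and 0.15 after quantile normalization, beside -0.09 and 0.01 over all genes. Calls in either direction made up 32.9% of the members, a share below the 38.3% of all genes. Calls by complex were 9 higher and 3 lower in complex I, 1 and 0 in complex II, 1 and 1 in complex III, 5 and 3 in complex IV, and 3 and 1 in complex V, on both scales.

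**Figure D2:**
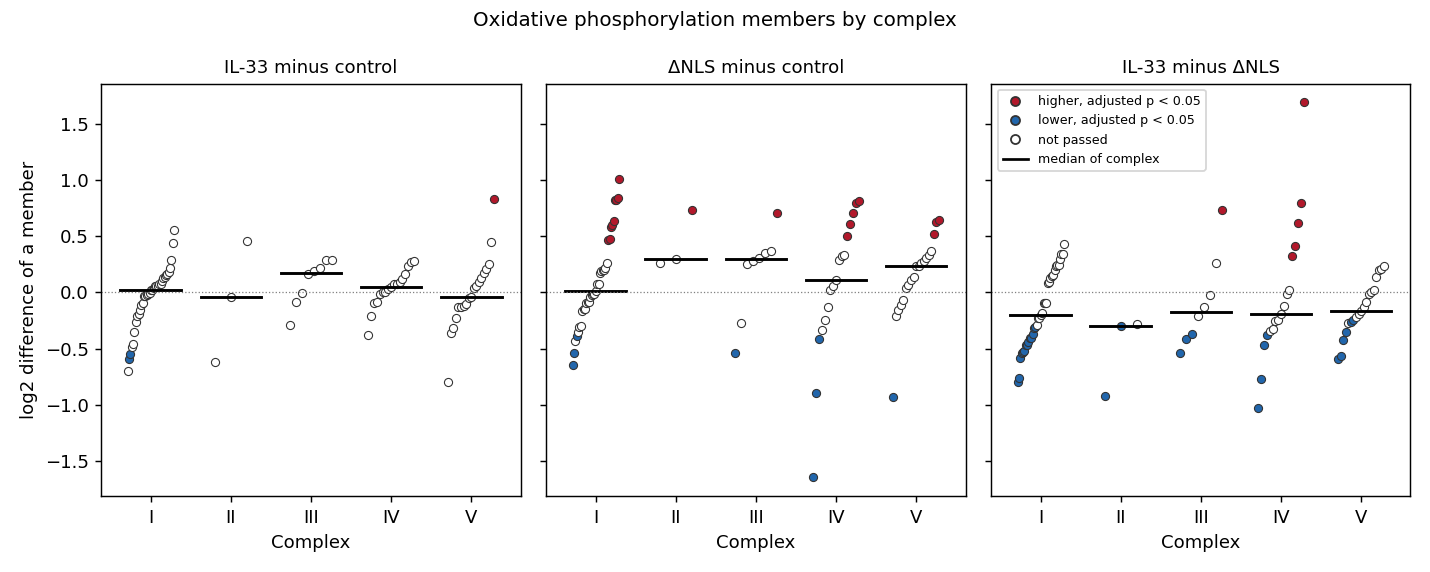
Each point is 1 of the 82 members, placed by complex on the horizontal axis and by its log2 difference on the vertical axis, for IL-33 minus control, ΔNLS minus control and IL-33 minus ΔNLS. Red and blue points passed the limma threshold upward and downward, bars mark the median of the complex, and 19 red points stand against 8 blue ones in the middle panel.

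The 5 complex IV members called higher as deposited were general subunits. The median of complex IV in ΔNLS minus control was 0.11 as deposited and 0.02 after quantile normalization. COX6A1 (0.11), COX6C (0.05) and COX7C (0.02), also general subunits, were not called. COX5B, the zinc-binding subunit, read 10.01, 10.19 and 10.06 in IL-33 clones 3, 5 and 9, 11.12 and 11.10 in ΔNLS clones 3 and 4, and 10.30 in the control. Both ΔNLS clones stood above every other array, by 0.81 ± 0.11 over the control (1.76-fold, limma adjusted p = 0.005). COX8A, the general isoform of subunit VIII, read 11.71, 11.89 and 11.68 in the IL-33 clones, 12.52 and 12.54 in the ΔNLS clones and 11.73 in the control. The control lay within the IL-33 clones, and the ΔNLS clones lay above all of them by 0.80 ± 0.11 over the control (limma adjusted p = 0.0048). COX7B, on the X chromosome, read 11.47, 11.64 and 11.50 in the IL-33 clones, 12.04 and 11.97 in the ΔNLS clones and 11.30 in the control. The order was ΔNLS, IL-33, control without overlap (ΔNLS minus control 0.70 ± 0.11, limma adjusted p = 0.00611). COX6B1 (0.61) and COX5A (0.50) were the other complex IV members that rose. After quantile normalization the differences of these 5 members were between 0.41 and 0.77, and among them COX5A then missed the threshold (0.41, limma adjusted p = 0.0649).

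The 3 complex IV members that fell in the ΔNLS clones were isoforms with a restricted tissue range. COX6B2, the testis isoform, read 5.93, 6.004 and 5.90 in the IL-33 clones, 4.20 and 4.32 in the ΔNLS clones and 5.90 in the control. The ΔNLS clones were below background and the other arrays above it, so only a bound can be given. Taking the background level for the ΔNLS clones, COX6B2 was at least 2.13-fold lower in ΔNLS clones than in the control (limma adjusted p = 0.00134). The 3 probe sets of COX6B2 gave differences between -1.64 and -0.52, so this bound holds for the probe set used only. COX6A2, the muscle isoform, read 5.79 in each of the 3 IL-33 clones, 5.06 and 4.92 in the ΔNLS clones and 5.89 in the control. It was low in both ΔNLS clones but still just above background (ΔNLS minus control -0.89 ± 0.12, limma adjusted p = 0.00441). COX7B2 was called too, but it was below background on all arrays (means of 1.89 in ΔNLS clones and 2.30 in the control), and no fold is given. The values of COX6A2 and COX6B2 are near the low end of the scale, where the ΔNLS arrays as a whole read lower: their first quartile over all genes was 3.67 and 3.74, against 4.06 to 4.08 on the IL-33 arrays and 4.00 on the control. After quantile normalization the difference was -0.77 for COX6A2, and both calls were kept.

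**Figure D3:**
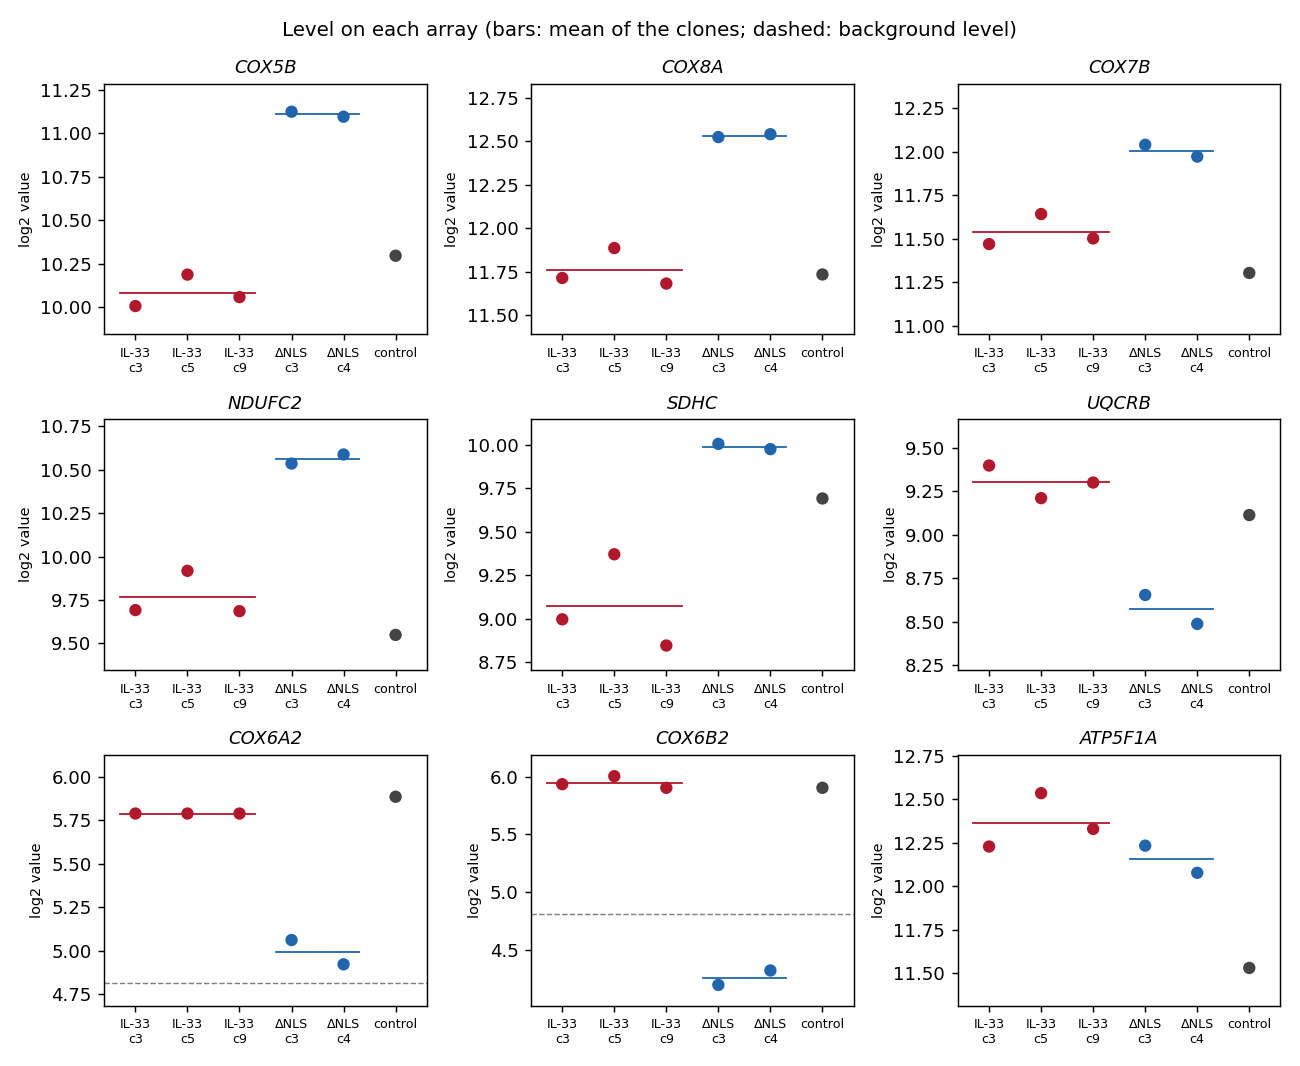
Log2 level of 9 members on each of the 6 arrays, with IL-33 clones in red, ΔNLS clones in blue and the control in grey. Horizontal lines mark the mean of the clones and the dashed line the background level of 4.81, and each panel has its own vertical range, which does not start at 0.

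In complex I, 9 members rose and 3 fell in the ΔNLS clones. NDUFC2, an accessory subunit of the membrane arm, rose most. It read 9.69, 9.92 and 9.69 in the IL-33 clones, 10.53 and 10.59 in the ΔNLS clones and 9.55 in the control. The ΔNLS clones were above all other arrays, by 1.01 ± 0.14 over the control (2.02-fold, limma adjusted p = 0.00459). Its 3 probe sets differed, with values between -0.05 and 1.01. NDUFS3, a core subunit of the ubiquinone-reducing module, read 9.71, 9.96 and 9.93 in the IL-33 clones, 10.17 and 10.14 in the ΔNLS clones and 9.32 in the control. Here every clone was above the control, and the difference passed the threshold for ΔNLS (0.84 ± 0.14, limma adjusted p = 0.00818) but not for IL-33 (0.55, limma adjusted p = 0.0622), where it did pass after quantile normalization (0.58, limma adjusted p = 0.048). Its difference between the constructs, -0.29, was not called either (limma adjusted p = 0.067). NDUFS7, the core iron-sulfur subunit that passes electrons to ubiquinone, read 9.43, 9.88 and 9.37 in the IL-33 clones, 10.31 and 10.33 in the ΔNLS clones and 9.50 in the control. The difference of 0.82 ± 0.22 passed (limma adjusted p = 0.0318), but the 4 probe sets of NDUFS7 ranged from -0.81 to 0.82, and their mean of 0.32 was not called.

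NDUFB9, an accessory LYR-motif subunit of the membrane arm, read 10.75, 10.70 and 10.87 in the IL-33 clones, 11.35 and 11.25 in the ΔNLS clones and 10.48 in the control. The groups did not overlap, and ΔNLS minus control was 0.82 ± 0.11 (limma adjusted p = 0.00487). The other 5 that rose differed by 0.46 to 0.64. The 3 complex I members that fell were NDUFA6 (-0.65, an accessory LYR-motif subunit of the matrix arm), NDUFS1 (-0.54, the largest iron-sulfur subunit) and NDUFC1 (-0.39). Of these, NDUFC1 had fallen in the IL-33 clones as well. NDUFS1 read 9.18, 8.86 and 8.90 in the IL-33 clones, 8.68 and 8.58 in the ΔNLS clones and 9.17 in the control. One IL-33 clone thus matched the control, and the call for ΔNLS was close to the threshold (limma adjusted p = 0.0494) and was lost after quantile normalization (-0.49, limma adjusted p = 0.0667). The median of complex I in ΔNLS minus control was 0.02, since the members that did not pass lay on both sides of 0.

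Complexes II, III and V had fewer calls. SDHD rose by 0.73 ± 0.20 in the ΔNLS clones (limma adjusted p = 0.0338), and all 5 of its probe sets gave a positive difference, between 0.65 and 1.02. In complex III the core protein UQCRC2 read 10.26, 10.59 and 10.31 in the IL-33 clones, 10.82 and 10.78 in the ΔNLS clones and 10.10 in the control. It rose by 0.70 ± 0.16 (limma adjusted p = 0.0194), with the IL-33 clones between the ΔNLS clones and the control. UQCRB, a small subunit near the ubiquinone site, went the other way. It read 9.40, 9.21 and 9.30 in the IL-33 clones, 8.65 and 8.49 in the ΔNLS clones and 9.11 in the control, and fell by 0.54 in ΔNLS against the control (limma adjusted p = 0.0271). UQCRC1, the other core protein, differed by 0.37 and missed the threshold (limma adjusted p = 0.0787).

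In ATP synthase, ATP5PB, subunit b of the peripheral stalk, read 12.27, 12.45 and 12.21 in the IL-33 clones, 12.55 and 12.45 in the ΔNLS clones and 11.86 in the control. The ΔNLS difference of 0.65 ± 0.12 passed (limma adjusted p = 0.0113), but the 4 probe sets of ATP5PB ranged from -0.76 to 0.70 and their mean gave 0.01. ATP5F1A rose by 0.62 in the ΔNLS clones (limma adjusted p = 0.0212, and 0.0521 after quantile normalization). Of the 3 genes that encode the same c subunit of the rotor ring, ATP5MC1 rose by 0.52 in the ΔNLS clones (limma adjusted p = 0.0355), while ATP5MC2 (0.07) and ATP5MC3 (0.04) were not called. ATP5ME fell by 0.93 in ΔNLS against the control. It read 10.54, 9.98 and 10.34 in the IL-33 clones, 10.26 and 10.05 in the ΔNLS clones and 11.08 in the control, so all 5 clones were below the control. It lies on chromosome 4, whose genes had a median of -0.79 in ΔNLS minus control.

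The ΔNLS calls rest on 2 clones. Over all genes, fewer were called than the 38.3% with all arrays when either ΔNLS clone or IL-33 clone 9 was left out. Without ΔNLS clone 3 there were 6 members called higher and 4 lower, without ΔNLS clone 4 there were 5 and 3, and without IL-33 clone 9, which only adds to the estimate of the spread, there were 14 and 4. COX5B, COX8A, COX7B, NDUFC2, NDUFB9, COX6A2 and COX6B2 were called under all 13 alternatives that kept the threshold of 0.05. NDUFS3, NDUFS7, SDHD, UQCRC2, ATP5PB, ATP5ME, UQCRB, NDUFS1 and NDUFC1 lost the call when either ΔNLS clone was left out. So did ATP5F1A, ATP5MC1, COX5A, COX6B1, NDUFA1, NDUFA9, NDUFA11, NDUFB11 and NDUFS6. NDUFA6 lost it without ΔNLS clone 4.

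The direct comparison of the constructs, IL-33 minus ΔNLS, gave 6 members called higher and 29 called lower, which is 7.32% and 35.4% of the members. Of all genes, 31.4% were called higher and 16.1% lower (5697 and 2924 genes). After quantile normalization the members stood at 8 higher and 28 lower, and all genes at 21.9% higher and 21.3% lower (3973 and 3871 genes). The median difference of the members was -0.20 as deposited and -0.13 after quantile normalization, beside 0.13 and 0.01 over all genes. Calls in either direction made up 42.7% of the members and 47.5% of all genes. Complex I had 0 members called higher and 14 lower, complex II 0 and 2, complex III 1 and 3, complex IV 5 and 4, and complex V 0 and 6. After quantile normalization these counts were 3 and 15, 0 and 2, 1 and 3, 4 and 4, and 0 and 4. These values use the same clones as the comparisons with the control and are not independent of them.

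COX5B had the most negative difference. It was lower in the IL-33 clones (mean 10.08 ± 0.09 SD, n = 3) than in the ΔNLS clones (11.11 ± 0.02 SD, n = 2), by 1.03 ± 0.08 SE or 2.04-fold (limma adjusted p = 0.00109). SDHC followed, with a mean of 9.07 ± 0.27 in the IL-33 clones and 9.99 ± 0.02 in the ΔNLS clones (IL-33 minus ΔNLS -0.92 ± 0.16, limma adjusted p = 0.00705). Neither construct differed from the control for SDHC at the threshold, and all 5 of its probe sets gave a negative difference between the constructs, from -0.92 to -0.43. Next came NDUFC2 (-0.80), COX8A (-0.77), NDUFS7 (-0.76), ATP5MJ (-0.59), NDUFB11 (-0.58), ATP5MC1 (-0.57), UQCR10 (-0.54) and NDUFA11 (-0.54). ATP5MJ, a small proteolipid of ATP synthase, read 10.28, 10.48 and 10.25 in the IL-33 clones, 10.97 and 10.89 in the ΔNLS clones and 10.65 in the control. The control thus lay between the constructs, but the 7 probe sets of ATP5MJ ranged from -0.59 to 0.17 and their mean of -0.21 was not called. UQCR10, a small subunit of complex III, had the same order, with 11.22, 11.28 and 11.15 in the IL-33 clones, 11.83 and 11.68 in the ΔNLS clones and 11.50 in the control. NDUFB11 and NDUFA11 are accessory subunits of the membrane arm of complex I. The differences of the other 19 members that were lower in the IL-33 clones lay between -0.53 and -0.24, and ATP5MGL among them was below background on all arrays. SDHC, NDUFS7, ATP5MJ, NDUFB11 and NDUFA11 lost the call when either ΔNLS clone was left out, as did the other 19 apart from COX7B and NDUFB9. COX7B, NDUFB9 and ATP5MC1 lost it without ΔNLS clone 3 only.

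Of the 6 members called higher in the IL-33 clones than in the ΔNLS clones, 3 were below background on all arrays (COX7A1, COX7B2 and COX8C) and get no fold. The other 3 were COX6B2, at least 2.20-fold higher (limma adjusted p = 0.000621), COX6A2 (0.80, limma adjusted p = 0.0019) and UQCRB (0.73, limma adjusted p = 0.00346). The 3 probe sets of COX6B2 gave differences between 0.63 and 1.69, so its bound holds for the probe set used only. For UQCRB the IL-33 mean was 9.30 ± 0.09 and the ΔNLS mean 8.57 ± 0.12, and the mean of its probe sets gave 0.34, which was not called (limma adjusted p = 0.0686). The probe sets used for COX6B2, UQCRB, SDHC, COX7B, ATP5MJ and NDUFB11, among others, carry the Affymetrix mark for probes that can also bind other transcripts, so related copies may add to their signal. With either ΔNLS clone or IL-33 clone 9 left out, fewer of all genes were called than the 47.5% with all arrays. Without ΔNLS clone 3 there were 7 members called higher and 5 lower, without ΔNLS clone 4 there were 5 and 8, and without IL-33 clone 9 there were 5 and 19.

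Where a member had several probe sets, these did not always have 1 sign. In ΔNLS minus control, 13 of 17 called members with several probe sets had the same sign in all of them, in IL-33 minus ΔNLS 11 of 20, and in IL-33 minus control 1 of 2. For NDUFC2 the mean over its probe sets gave -0.17 in IL-33 minus ΔNLS (limma adjusted p = 0.233), against -0.80 for the probe set with the highest mean. Of the 35 members called in IL-33 minus ΔNLS, 25 kept the call when probe sets were averaged, and UQCRB, NDUFC2, NDUFS7, ATP5MJ, NDUFA1, NDUFA3, NDUFS8, SDHA, UQCRC2 and UQCRQ lost it.

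Clones of 1 construct differed among themselves in the level of the whole set. Against the control, the median of the 76 members above background was -0.02 in IL-33 clone 3, 0.11 in IL-33 clone 5, -0.04 in IL-33 clone 9, 0.19 in ΔNLS clone 3 and 0.15 in ΔNLS clone 4. IL-33 clone 5, where the IL33 gene read lowest of these clones, was the highest of the 3 IL-33 clones in 57 of the 76 members (75%), against 42.9% of all genes above background (75% and 40% after quantile normalization). IL-33 clone 9, with the highest IL33 level, was highest in 3 of 76 (3.95%), against 25.5% of all genes above background. The pattern was seen in each complex, with clone 5 highest in 26 of 35 members of complex I, 3 of 3 of complex II, 6 of 8 of complex III, 9 of 12 of complex IV and 13 of 18 of complex V. Clone 5 lay 0.15 above the mean of the other IL-33 clones at the median of the members, and 0.03 over all genes above background. ΔNLS clone 3 was above ΔNLS clone 4 in 62 of 76 members (81.6%), against 54.4% of all genes above background. After quantile normalization this was 53 of 76 members (69.7%), against 49.5%. With 1 array per clone, a difference between clones cannot be told apart from a difference between arrays, and these orders are descriptions with no test.

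**Figure D4:**
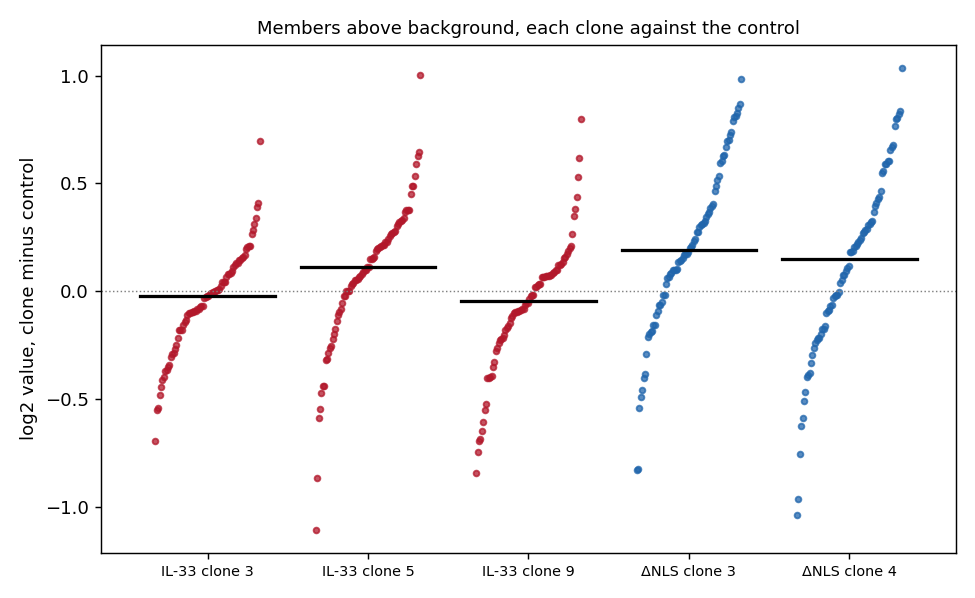
Log2 level of each of the 76 members above background in a clone minus its level in the control, sorted within each clone, with IL-33 clones in red and ΔNLS clones in blue. Bars mark the medians, which were 0.11 in IL-33 clone 5, below 0 in IL-33 clones 3 and 9, and 0.19 and 0.15 in the ΔNLS clones.

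Other lists of mitochondrial genes were counted in the same way, beside 14.8% of all genes called higher and 23.5% called lower in ΔNLS against the control. Of 74 genes for mitochondrial ribosomal proteins, which make the subunits encoded by mitochondrial DNA, 11 rose and 18 fell in ΔNLS against the control (14.9% and 24.3%, close to the shares of all genes), with a median of -0.06 (as deposited) and -0.04 (quantile). MRPL1 fell by 1.64 and MRPL54 rose by 0.92. Of 19 genes of the citric acid cycle and pyruvate dehydrogenase, 2 rose and 6 fell (10.5% and 31.6%). OGDH fell by 1.06, DLST by 1.16 and MDH2 by 0.79, while IDH3G, a subunit of the NAD-dependent isocitrate dehydrogenase, rose by 1.01. Of 16 assembly factors of complex I, 5 rose and 2 fell (31.2% and 12.5%), with ECSIT and TMEM186 higher by 0.97 each while NUBPL, on chromosome 14, fell by 1.58. Of 34 assembly factors of the other complexes, 4 rose and 6 fell (11.8% and 17.6%), and SDHAF4, which helps build complex II, fell by 1.65. LRPPRC, which stabilizes mitochondrial mRNA, fell by 1.04. CYCS, cytochrome c itself, fell by 0.43 in the ΔNLS clones, and CYC1, the cytochrome of complex III that hands electrons to it, rose by 0.34 but lost the call after quantile normalization (0.29, limma adjusted p = 0.0508). After quantile normalization the ribosomal proteins had 12 calls upward and 18 downward, the citric acid cycle 3 and 6, the complex I assembly factors 5 and 2, and the other assembly factors 4 and 6. Whether any list differed from the subunits or from all genes was not tested.

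In IL-33 against the control, where 3.65% of all genes were called higher and 4% lower, all calls in these lists were downward. With the ΔNLS arrays left out of the fit, 0% of all genes were called in this comparison, so none of these calls was kept. The mitochondrial ribosomal proteins had 0 higher and 5 lower of 74 (6.76% lower), the citric acid cycle 0 and 1 of 19 (5.26%), the complex I assembly factors 0 and 1 of 16 (6.25%), and the assembly factors of the other complexes 0 and 4 of 34 (11.8%). The one citric acid cycle gene was IDH2, the mitochondrial NADP-dependent isocitrate dehydrogenase, which read 7.37, 7.18 and 7.24 in the IL-33 clones, 8.02 and 8.25 in the ΔNLS clones and 8.48 in the control, and fell by 1.22 in IL-33 against the control (limma adjusted p = 0.0141). Of 12 genes that turn cells between lactate production and respiration, 0 rose and 3 fell (25%), with the same counts after quantile normalization in this and the other lists of this comparison. Among them PDK1, a kinase that shuts off pyruvate dehydrogenase, read 7.31, 6.44 and 6.66 in the IL-33 clones, 8.05 and 8.51 in the ΔNLS clones and 9.01 in the control, and fell by 2.21. The glucose transporter gene SLC2A1 read 8.05, 7.02 and 7.61 in the IL-33 clones, 9.34 and 10.06 in the ΔNLS clones and 10.09 in the control, and fell by 2.53. IL-33 clone 5, in which most subunits were highest among the IL-33 clones, had the lowest value of both genes. PPARGC1A, the coactivator PGC-1α that drives mitochondrial biogenesis, was above background only in the control (5.18) and below it in every clone (3.91, 3.31 and 3.29 in the IL-33 clones, 2.51 and 2.66 in the ΔNLS clones), and it lies on chromosome 4.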

How the data were processed

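Total RNA from U87 cells was labelled by 3′ in vitro transcription and hybridised to 1-colour PrimeView arrays, 1 array per clone. The table deposited by the authors holds log2 values of 49395 probe sets on 6 arrays, and how they were normalized is not given in the sources used here. That the logarithm has base 2 was taken from the range, since the highest value of 14.2 is above 11.09, the natural log of the largest 16-bit signal. The submitters' processing notes name Partek 6.0. The methods name a count test and a threshold of 2-fold and 0.01. A count test cannot take log2 values, so limma 3.58.1 (R 4.3.3) was used, with lmFit and eBayes with a trend over all 6 arrays and 3 group means (3 residual and 2.81 prior degrees of freedom), two-sided, with Benjamini-Hochberg adjustment over 18132 genes. Each gene was read from the probe set that names only that gene and has the highest mean over the arrays. Of the probe sets, 44994 had 1 symbol, 1832 several and 2569 none, and 18112 genes were matched in RefSeq. The 4 entries of several symbols that match the rule were left out. Standard errors and p-values measure the spread between these clones only, and the control, with 1 array, was assumed to vary like them. The arrays have no depth, and their number limits the precision. On 1989 to 3098 probe sets, pairs of IL-33 and control arrays had identical values. The script was tested on simulated data.

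Members and gene lists were chosen with earlier results of these data known. Values are given for up to 10 called members with the largest difference in each direction and comparison, for the member with the smallest p and the highest mean level in each complex, and for the isoforms of complex IV and of the c subunit, and other members were added after their values were seen. Alternatives were quantile normalization, median centring, fits on the compared groups only, leaving out each clone, eBayes without trend or with robust estimation, the mean of all probe sets, genes above background only, the threshold of the methods, and leaving out chromosomes 4, 13, 14 and 18. Promoters came from RefSeq (GRCh38.p14).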

Additional observations from a re-analysis of the deposited data

Results flagged for a closer look

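For 20 of the members described, the effects of the constructs against the control differed by the test of the difference itself. That test was IL-33 minus ΔNLS, with a limma adjusted p under 0.05 over all genes. Some members were described because they were called in this comparison, so the count of 20 was partly set by that choice. Of all members, 42.7% were called in this comparison in either direction, beside 47.5% of all genes. The value given below is the log2 difference IL-33 minus ΔNLS. In complex I it was -0.80 for NDUFC2, -0.76 for NDUFS7, -0.58 for NDUFB11, -0.54 for NDUFA11, -0.53 for NDUFB9, -0.47 for NDUFS8 and -0.40 for NDUFA1. NDUFS8 was low in the IL-33 clones (-0.55 against the control, and -0.08 for ΔNLS), and the other 6 were high in the ΔNLS clones (0.58 to 1.01 against the control). In complex II it was -0.92 for SDHC and -0.30 for SDHA. In complex III it was -0.54 for UQCR10, -0.42 for UQCRC2 and 0.73 for UQCRB. In complex IV it was -1.03 for COX5B, -0.77 for COX8A, -0.47 for COX7B and 0.80 for COX6A2. For COX6B2, which was below background in the ΔNLS clones, it was at least 1.13 on the probe set used. In complex V it was -0.59 for ATP5MJ, -0.57 for ATP5MC1 and -0.43 for ATP5MC2. The ΔNLS construct and the set of arrays with another value distribution cannot be told apart in any of these.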

How the results depend on the processing

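The SD between clones of the members' median level was 0.085 to 0.088. The median difference of the 82 members moved by less than this SD in each comparison and alternative. This SD is of levels and not of differences. Without ΔNLS clone 3 the median of ΔNLS minus control moved from 0.18 to 0.11. Against the control the median was 0.17 in ΔNLS clone 3 and 0.11 in ΔNLS clone 4. No called member changed sign. IL-33 minus control had 1 member called higher and 2 lower. Called higher were 2 after quantile normalization, 2 with the mean of all probe sets, 4 among genes above background only, 0 with only the groups compared, 0 at 2-fold and 0.01, and 0 without chromosomes 4, 13, 14 and 18. Called lower were 4 among genes above background only, 0 with only the groups compared, 0 at 2-fold and 0.01, and 1 without those chromosomes. ΔNLS minus control had 19 and 8, which became 1 and 1 at 2-fold and 0.01, and 5 lower without those chromosomes. IL-33 minus ΔNLS had 6 and 29, which became 12 higher with the mean of all probe sets, 3 higher among genes above background only, and 1 and 1 at 2-fold and 0.01. At 2-fold and 0.01, 0.331% of all genes were called higher and 0.507% lower in IL-33 minus control. These shares were 3.5% and 5.97% in ΔNLS minus control, and 4.69% and 2.51% in IL-33 minus ΔNLS. Some alternatives changed the number of genes tested, the arrays in the fit or the threshold, and the cause of the changed counts was not tested. The calls over all genes changed as well when a clone was left out. Leaving out each clone gave 0 to 2 higher and 0 to 4 lower for IL-33 minus control, 5 to 25 higher and 3 to 9 lower for ΔNLS minus control, and 5 to 7 higher and 5 to 37 lower for IL-33 minus ΔNLS. No paired analysis was possible because the constructs share only 1 clone number and the control has none. With 1 control array, the empty vector and that single culture cannot be told apart.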

Other observations

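The HIF-2α gene EPAS1 read 11.66, 11.48 and 11.91 in the IL-33 clones, 10.43 and 10.35 in the ΔNLS clones and 11.25 in the control, and was 1.29 higher in IL-33 than in ΔNLS clones (limma adjusted p = 0.00164). PDK2, a second kinase of pyruvate dehydrogenase, read 5.82, 6.03 and 5.97 in the IL-33 clones, 6.78 and 6.67 in the ΔNLS clones and 5.56 in the control. It rose by 1.17 in ΔNLS against the control (limma adjusted p = 0.00352), while PDK1 was lowest in the IL-33 clones. Of the 18 genes for mitochondrial DNA expression and biogenesis, 6 were higher and 0 lower in IL-33 than in ΔNLS clones. This is 33.3% called higher, beside 31.4% of all genes, and after quantile normalization 6 were higher and 1 lower. An unadjusted p under 0.05 in limma was found for 9 of the 18, beside 10151 of all 18132 genes.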
